A study of Mus musculus with 2 samples.

Results

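The Krüppel-like factor genes described here were Klf2, Klf3, Klf4, Klf5, Klf6, Klf7, Klf9, Klf10, Klf11 and Klf13. They were taken by name from the non-control spots of both arrays, with every probe of each name, which gave 10 genes and 12 probes among 35019 gene names and 55681 probes. The data were 2 single-colour arrays of total RNA from the mouse line GT1-7, with 1 array in each group. GT1-7 is an immortalised hypothalamic line that was derived from a mouse tumour driven by a T antigen under the control of gonadotropin-releasing hormone (GnRH) sequences. Cells had been grown in DMEM with fetal calf serum and gentamicin. The vehicle array comes from cells given DMSO for 30 min, and the GnRH array from cells given the peptide at 50 nM for 30 min in DMEM. DMSO is thus named for the vehicle array alone, and an effect of the solvent cannot be told apart from that of GnRH. The free-text description of both samples names another peptide (bradykinin) and another cell line (A549), while the title, source and characteristics name GT1-7 and the treatments above, which were followed here.

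The arrays carried no replicate of either treatment. Every value below therefore describes these 2 arrays, the spread between cultures is unknown, no test was made, and their small number sets the precision. Signals are the scanner software's background-subtracted intensities, and differences are GnRH minus vehicle on the log2 scale, after each array was set to its own 75th percentile. The error beside a value is the scanner software's own estimate, which for well-measured spots mostly holds its multiplicative setting of 0.1 and no variation between cultures. The label calls the cells hypothalamic neurons. Neither array had Gnrh1, the defining gene of GnRH neurons, well above background (7.94 with vehicle and 10.3 with GnRH on 1 of its probes). Of 6 gonadotrope genes, 5 were well above it. Their signals with vehicle were 80508 (Cga), 48204 (Pitx1), 33412 (Nr5a1), 14862 (Gnrhr) and 71.5 (Lhb). These markers thus differ from what the label names. The identity of the cells was not tested, and the label is used here only as a name. In these bulk samples, fewer expressing cells and less RNA per cell cannot be told apart. Of genes that mark other cells in which KLF factors are well known, 2 of 8 endothelial, 4 of 6 macrophage and microglial, 1 of 5 epithelial, 2 of 5 fibroblast and 3 of 4 erythroid markers were well above background on both arrays. At least 1.5-fold higher in the GnRH array were 2 of the erythroid markers, the globin genes Hba-a1 (29.6 with vehicle and 44.7 with GnRH, a difference of 0.69) and Hbb-bh1 (65.7 and 264, a difference of 2.10), and 0 of the measured markers in the other lists differed 1.5-fold. The Hbb-bh1 spot lay in an area of the arrays where neighbouring spots differed together. The third measured erythroid marker was Klf1 itself, at 0.28, and Gata1 lacked a probe well above background on both arrays. The summed signal of the measured endothelial markers was 6795 with vehicle and 6368 with GnRH, and that of the macrophage and microglial markers was 6954 and 6401. That of the fibroblast markers was 1617 and 1409, and that of the erythroid markers was 120 and 337. Single genes made up most of the first 3 sums, namely Kdr (6742 and 6310), Itgam (5000 and 4561) and Col1a2 (1455 and 1261). Pecam1, the other measured endothelial marker, stood at 53.1 and 58.4. The epithelial marker Krt5 stood at 91.0 and 78.5. Cdh5, Tie1, Tek, Emcn, Cldn5 and Vwf, the remaining endothelial markers, lacked a probe well above background on both arrays. The part of other cells in the KLF values was not tested.

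Krüppel-like factors are transcription factors that bind GC-rich and CACCC elements through zinc fingers at their carboxy-terminal end, and differ mainly in the amino-terminal parts that recruit coactivators or corepressors. KLF2, KLF4, KLF5, KLF6 and KLF7 are mostly known as activators. KLF3 recruits the corepressor CtBP, and KLF9, KLF10, KLF11 and KLF13 recruit the corepressor SIN3A. Several genes of the family are known as early response genes, which growth factors, serum or neuronal activity switch on without new protein synthesis, and GnRH acts through a Gq-coupled receptor and MAP kinases that feed into such genes.

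Promoter windows of 300 bases, from 250 bases before to 50 bases after the annotated start, were held by the RefSeq-based table (build GRCm38.p6) for 8 of the 10 genes, all except Klf5 and Klf10. Those of Klf4, Klf2 and Klf3 are shown because they hold the letters of an EGR site (GCGNGGGCG, searched on both strands), the element bound by the zinc-finger factor EGR1, whose gene was 354-fold higher in the GnRH array. That of Klf6 is shown beside them because its gene stood next to Klf4 in the order of differences and its window holds no such match. All 4 were picked for display after the matches and differences were seen. The windows lie at chr4:55532426-55532725 (minus strand), chr8:72318812-72319111 (plus strand), chr5:64803271-64803570 (plus strand) and chr13:5861239-5861538 (plus strand). Each is printed 5′ to 3′ along its gene, and capitals mark EGR sites and, as the second run of capitals in Klf2 alone, a MEF2 site.
Klf4 promoter: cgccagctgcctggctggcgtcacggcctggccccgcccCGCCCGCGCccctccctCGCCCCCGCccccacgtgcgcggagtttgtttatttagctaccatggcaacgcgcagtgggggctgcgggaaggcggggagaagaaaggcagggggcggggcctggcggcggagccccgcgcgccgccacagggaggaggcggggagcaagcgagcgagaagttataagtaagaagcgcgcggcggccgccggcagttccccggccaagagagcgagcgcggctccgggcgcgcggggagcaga
Klf2 promoter: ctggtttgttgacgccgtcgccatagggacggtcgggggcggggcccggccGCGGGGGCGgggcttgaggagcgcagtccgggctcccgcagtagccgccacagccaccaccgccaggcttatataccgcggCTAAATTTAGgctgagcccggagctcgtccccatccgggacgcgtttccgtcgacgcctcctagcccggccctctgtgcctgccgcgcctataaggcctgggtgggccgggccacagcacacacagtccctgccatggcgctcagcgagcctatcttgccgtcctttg
Klf3 promoter: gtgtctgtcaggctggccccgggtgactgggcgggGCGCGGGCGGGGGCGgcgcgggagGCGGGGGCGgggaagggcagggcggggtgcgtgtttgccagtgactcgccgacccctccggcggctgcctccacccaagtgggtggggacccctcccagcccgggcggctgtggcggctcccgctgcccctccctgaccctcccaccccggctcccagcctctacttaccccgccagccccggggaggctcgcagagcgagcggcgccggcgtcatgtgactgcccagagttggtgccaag
Klf6 promoter: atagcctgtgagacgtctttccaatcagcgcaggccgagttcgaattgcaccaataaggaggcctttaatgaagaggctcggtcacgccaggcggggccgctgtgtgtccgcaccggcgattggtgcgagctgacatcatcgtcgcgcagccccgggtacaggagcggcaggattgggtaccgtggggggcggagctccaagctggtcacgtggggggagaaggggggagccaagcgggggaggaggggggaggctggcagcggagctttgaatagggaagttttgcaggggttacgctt
The 3 windows with EGR letters held 6 matches in all, of which 2 lay in Klf4, on the opposite strand, 1 in Klf2 and 3 in Klf3, where the first 2 overlap each other. They began between 215 and 191 bases before the start, and all 6 share bases with a GC box (GGGCGG). The same letters occur in 5.56% of 32817 promoter windows of this length, and in 13.3% of the 10425 windows whose GC content lies between those of the KLF windows (58.3% to 77.7%). The MEF2 site, the element through which the kinase ERK5 is known to act on Klf2, begins 118 bases before the start, and such a match occurs in 0.558% of all windows and in 0.288% of those in that GC range. These matches describe letters in the reference sequence and not binding in these cells. Further motifs were searched in the same windows and are given at the end. A part of EGR1 in the KLF differences was not tested.

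All 10 genes were well above background on both arrays. Of the 10, 9 stood higher in the GnRH array (Klf13 on its brightest probe alone) and 1, Klf5, stood lower, beside 47.5% of all 21219 measured genes above 0. The median log2 difference of the 10 was 0.30, and that of all measured genes was -0.01. No member reached 2-fold in either direction, beside 0.311% of all genes on the higher side and 0.132% on the lower side. At 1.5-fold, 1 member (Klf4) was higher and 0 were lower, beside 1.19% and 0.881% of all genes. A difference above its own scanner error was seen for 6 of the 10 members (Klf2, Klf3, Klf4, Klf6, Klf10 and Klf11), beside 7.34% of all genes, and 0 members were lower by more than that error, beside 6.78%. The 10 genes lie on 10 different chromosomes.

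Positions of the probes are those of the array files, on mm9. Those on the plus strand lie at chr8:74845137-74845196 (Klf2), chr5:65221309-65221368 (Klf3), chr13:5869371-5869430 (Klf6), chr19:23240410-23240469 (Klf9) and chr12:25347324-25347383 (Klf11). Those on the minus strand lie at chr1:64082265-64082324 (Klf7) and chr15:38224255-38224314 (Klf10). The Klf5 probe is listed from 99702656 to 99712388 on chromosome 14, a span of 9733 bases for a probe of 60 bases, and thus bridges 2 separate stretches of the gene.

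**Figure D1:**
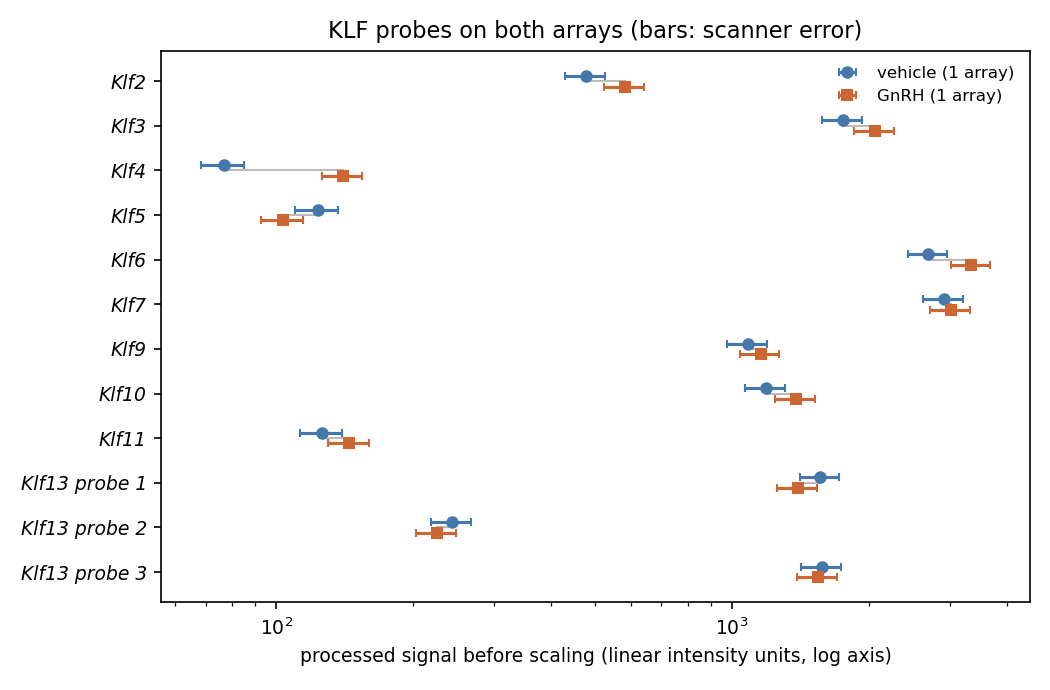
Processed signal of each KLF probe on the vehicle array (circles) and the GnRH array (squares), before scaling between arrays, on a log axis in linear intensity units; bars are the scanner error and each group is 1 array. Klf4 has the widest gap, from 76.7 to 140.1, while the 3 Klf13 probes each lie slightly lower in the GnRH array before scaling.

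Among the activator-type members, Klf4 differed most. KLF4, a factor best known for its part in reprogramming cells to pluripotency and in epithelial and vascular differentiation, is also a classical early response gene product. Klf4 had a processed signal of 76.7 ± 8.36 (scanner error) with vehicle and 140.1 ± 14.3 with GnRH. Those scanner errors do not overlap. The scaled log2 difference was 0.96 ± 0.22, or 1.95-fold, just under the 2-fold limit. In the order of differences over all 21219 measured genes, Klf4 took place 69 from the highest. As scanned, before background subtraction, the mean of the spot's pixels was 161 with vehicle and 231 with GnRH, over local backgrounds of 70 and 71, so the background under the spot was nearly the same on both arrays. The size of the difference depended on the background correction, at 1.95-fold with the software's own, 1.55-fold with the normexp method and 1.53-fold with none. When the measured genes were cut into 4 equal groups by signal, Klf4 lay in the dimmest, where 3.15% of genes were at least 1.5-fold higher. The corresponding shares were 0.735% in the next group, which held Klf2, Klf5 and Klf11, 0.566% in the one after it, which held Klf3, Klf6, Klf7, Klf9, Klf10 and Klf13, and 0.32% in the brightest, which held none. Its probe, on chromosome 4 at 55540167 to 55540226 (mm9, minus strand), was its only probe, so no second probe bears on the value.

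Klf6 and Klf2 followed. KLF6 is a broadly expressed factor known as an early response gene product after tissue injury and as a growth suppressor. Klf6 had a signal of 2696 ± 269.6 with vehicle and 3350 ± 335.0 with GnRH, which put the log2 difference at 0.41 ± 0.20 (1.33-fold). KLF2, known from quiescent endothelium and T cells, is induced by ERK5 and MEF2 factors. Klf2 stood at 479 ± 48.1 with vehicle and 583 ± 58.4 with GnRH, a difference of 0.38 ± 0.20 (1.30-fold). Both differences were larger than their scanner error, and neither reached 1.5-fold. Of all measured genes, 2.86% lay above Klf6 and 3.33% above Klf2.

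KLF7, a factor required for the growth of sensory and other axons, belongs to the same structural branch as KLF6. Klf7 had signals of 2912 ± 291 and 3022 ± 302 in the vehicle and GnRH arrays, a difference of 0.15 ± 0.20, which is smaller than its scanner error. KLF5, a growth-promoting factor of epithelia and smooth muscle, was the only member below 0. Klf5 had signals of 123 ± 13.04 and 103.6 ± 10.9, a difference of -0.16 ± 0.22, also within its scanner error. The activator-type members thus ran from -0.16 (Klf5) to 0.96 (Klf4), with a median of 0.38 over 5 genes.

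Klf3 was the only member of the CtBP-binding branch in the group. KLF3 is a repressor best known from erythroid cells and fat tissue. Klf3 had signals of 1753 ± 175 with vehicle and 2055 ± 206 with GnRH, a difference of 0.32 ± 0.20 (1.25-fold). Its difference was above its scanner error and below 1.5-fold.

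The SIN3A-binding members were all above 0 on their brightest probes, from 0.07 (Klf13, which lay below 0 on its other probes) to 0.31 (Klf10), with a median of 0.24 over 4 genes and 0 at 1.5-fold. KLF10, first described as a gene induced early by TGF-beta, had a signal of 1187 ± 119 with vehicle and 1382 ± 138 with GnRH, a difference of 0.31 ± 0.20 (1.24-fold). KLF11 is its closest relative and is known from pancreatic beta cells. Klf11 had signals of 126 ± 13.4 and 145 ± 15.0, a difference of 0.29 ± 0.21 (1.23-fold). Klf10 and Klf11 differed by nearly the same amount, and both exceeded their scanner error. KLF9, known as a target of thyroid and glucocorticoid hormones in neurons, had signals of 1084 ± 108 and 1155 ± 116, a difference of 0.19 ± 0.20, within its scanner error.

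Klf13 was the only member with more than 1 probe, and its 3 probes were all well above background. KLF13 is known from T cells and the heart. The brightest probe (chromosome 7, 71082854 to 71082913, minus strand, mm9) had signals of 1575 ± 157 with vehicle and 1546 ± 155 with GnRH, a difference of 0.07 ± 0.20. The probe whose coordinates span 71036675 to 71069606 on the minus strand had 243 ± 24.6 and 226 ± 22.8, a difference of -0.01 ± 0.21. The remaining probe, designed to a cDNA sequence and listed on the plus strand at 71032482 to 71032541, had 1563 ± 156 and 1394 ± 139, a difference of -0.07 ± 0.20. It carries the gene's name on the array, although the other probes and the promoter window of Klf13 lie on the minus strand. All 3 differences were smaller than their scanner error, and their signs differed, so no direction is given for Klf13.

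**Figure D2:**
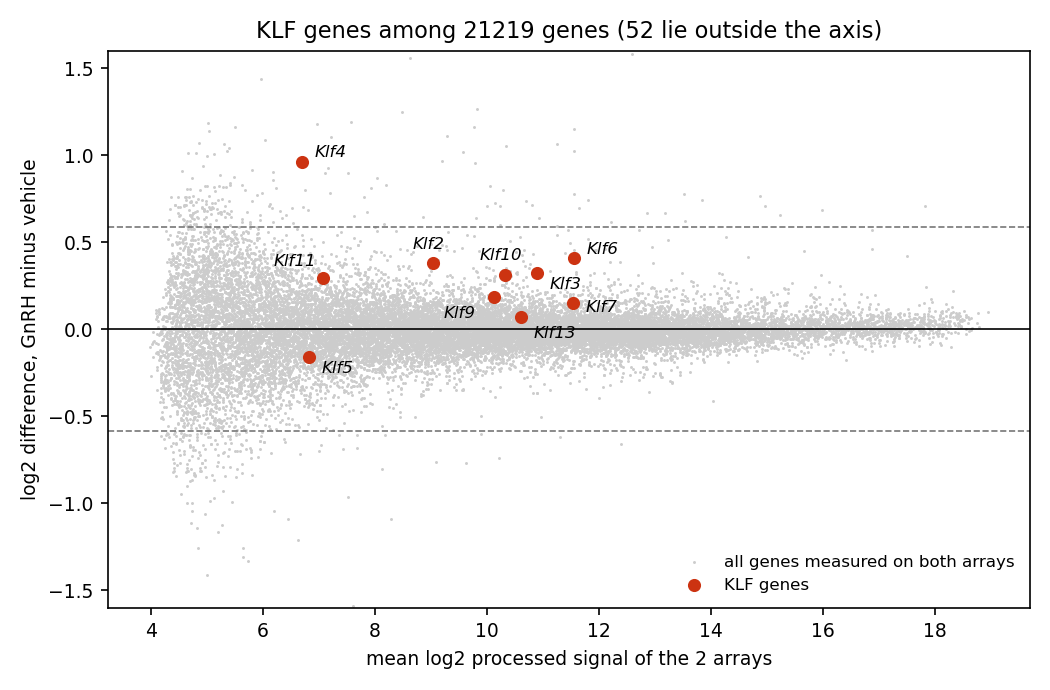
Log2 difference (GnRH minus vehicle) against the mean log2 processed signal of the 2 arrays for all 21219 measured genes (grey) and the 10 KLF genes (red); each point is 1 gene, dashed lines mark 1.5-fold, and 52 genes lie outside the vertical axis. Klf4 is the only KLF gene past a dashed line, and the grey cloud is wider at low signal. Klf4 lies in the dimmest of 4 signal groups, and Klf5 and Klf11 lie in the next.

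The scanner error can be set beside a spread measured on these arrays. Among 262 probes printed 10 times, those with a mean signal within 2-fold of a given member were used. Their between-array differences scattered among the repeated spots of a probe with an SD of 0.04 to 0.16 (log2), depending on the member. At the signal of Klf4 this SD was 0.16 (37 probes), against a difference of 0.96, and at that of Klf6 it was 0.04 (66 probes), against 0.41. For Klf2 it was 0.07 (63 probes) against 0.38, for Klf3 0.05 against 0.32 and for Klf10 0.06 against 0.31. For Klf11 it was 0.13 against 0.29, for Klf7 0.04 against 0.15 and for Klf9 0.06 against 0.19. Klf7 and Klf9 thus exceeded this SD although they lay within their scanner errors. On the brightest Klf13 probe it was 0.05 against 0.07. The difference of Klf5, -0.16, was about the size of this SD at its signal (0.16). Spots of a probe share the RNA, the labelling and the array, so this spread leaves out variation between labellings and cultures. It describes repeated spots only, and is not the spread of differences that unchanged genes would show between the arrays.

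No KLF spot was saturated or marked as an outlier, and none lay in the 3 areas of the arrays where neighbouring spots of unrelated genes differed together. The median difference of the spots around each KLF spot, relative to all spots, ran from -0.10 to 0.10. It was 0.10 around Klf4, against that gene's difference of 0.96.

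The rest of the family gave a comparison with the same zinc-finger architecture. Of 7 other KLF genes, 6 were measured, with 4 above 0, 2 below 0 and a median of 0.14, and 0 reached 1.5-fold in either direction. Klf17, an oocyte factor, was at 0.52 ± 0.38 with a signal of 21.2 with vehicle and 28.4 with GnRH, and Klf15, a metabolic factor of liver and muscle, was at 0.43 ± 0.25 with 44.2 and 56.0. Klf1, the erythroid factor, was at 0.28 ± 0.36 with 25.04 and 28.5. For comparison, the lowest signal of any probe well above background was 16.3 with vehicle and 14.1 with GnRH. Klf16 (0.00 ± 0.20), Klf12 (-0.09 ± 0.21) and Klf8 (-0.09 ± 0.21), which like Klf3 or Klf9 bind corepressors, had signals over 190 on both arrays and stayed within their errors. Klf14 was well above background on neither array.

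The SP genes encode the sister family, which shares the zinc fingers and GC-box binding. Of 9, 8 were measured, with 7 above 0, 1 below 0, a median of 0.07 and 0 at 1.5-fold. Sp9, a forebrain interneuron factor, was at 0.48 ± 0.21, with signals of 148 with vehicle and 193 with GnRH, and Sp5, a Wnt target, was at 0.23 ± 0.21. The other measured members were Sp3 (0.16), Sp2 (0.08), Sp4 (0.06), Sp8 (0.03), Sp6 (0.01) and the ubiquitous Sp1 (-0.01), all within their scanner errors. Sp7, the osteoblast factor, was well above background on neither array. The difference between the KLF members and the SP genes could not be tested with 1 array per group.

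**Figure D3:**
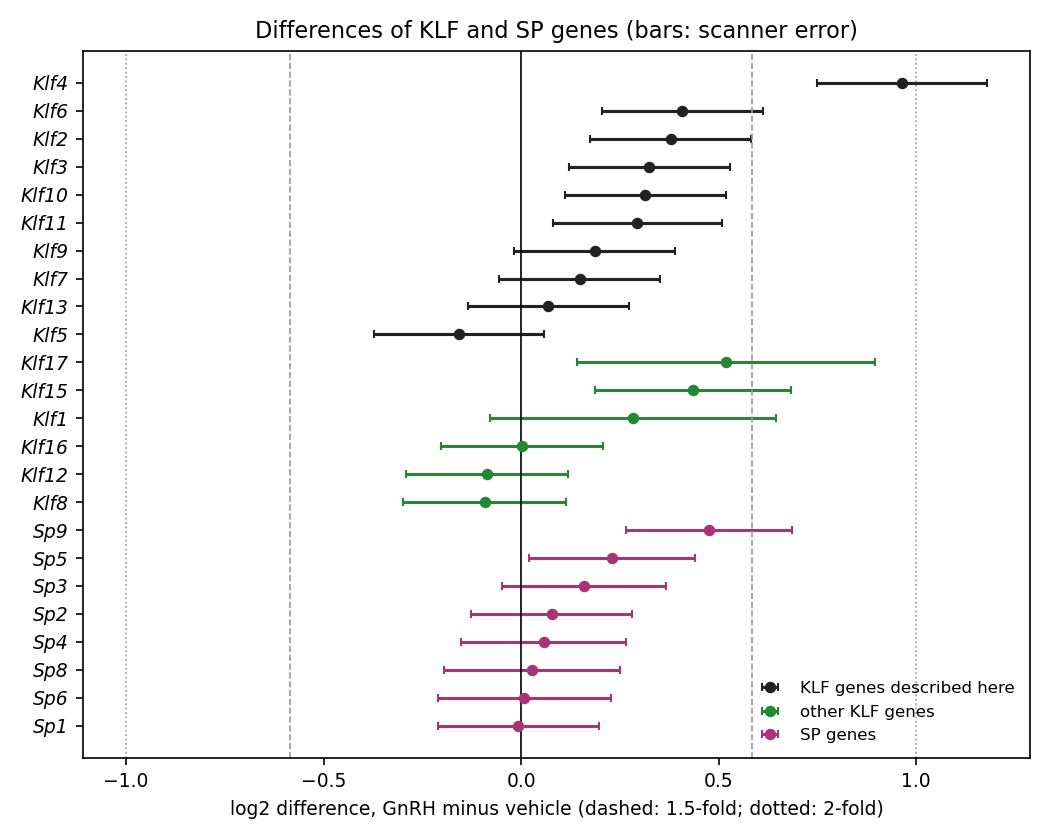
Log2 difference (GnRH minus vehicle) of the KLF genes described here (black), the other measured KLF genes (green) and the measured SP genes (purple); bars are the scanner error, and dashed and dotted lines mark 1.5-fold and 2-fold. Klf4 at 0.96 is the only gene past a dashed line, and the dim genes Klf17 and Klf1 have the widest bars.

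Genes that act with KLF proteins differed little. Of 10 corepressors and coactivators, 9 were measured and 0 reached 1.5-fold, from Hdac1 at -0.12 to Sin3a at 0.13, with a median of 0.05. Crebbp, a histone acetyltransferase that binds several KLF activators, was at 0.12 on its brightest probe and at -0.13 on its other probe. Of 6 ubiquitin ligases known to act on KLF proteins, 6 were measured and 0 reached 1.5-fold, with a median of 0.03. By brightest probe, Vhl, which is known to promote the turnover of KLF4, was the lowest at -0.23 ± 0.20. Wwp1, a ligase for KLF2 and KLF5, was the highest at 0.12 ± 0.21, but at -0.17 ± 0.40 on its other probe. Fbxw7 was at 0.09, and at 0.12 on its other probe.

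Of 10 genes of the ERK5, MEF2 and SRF arm, which acts upstream of several KLF genes, 9 were measured, with 1 at least 2-fold higher, 0 at least 1.5-fold lower and a median of -0.00. The gene past the limit was Srf, which encodes the serum response factor, with signals of 1746 with vehicle and 3425 with GnRH (1.07 ± 0.20) and a difference of 1.56 on its other probe. On their brightest probes, Mef2a was at 0.20 ± 0.20 and Elk3, a cofactor of SRF, at -0.14 ± 0.20. Other probes gave 0.18 ± 0.20 and 0.41 ± 0.22 for Mef2a, and -0.00 and 0.04 for Elk3. Mapk7, the gene of ERK5, was at -0.10, and Mef2c was well above background on neither array. Transcript levels do not report the activity of these kinases and factors.

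Of 11 genes known as KLF targets in other cells, 7 were measured, with 6 above 0, 1 below 0, 1 at least 1.5-fold higher, 0 at least 1.5-fold lower and a median of 0.17. Smad7, an inhibitor of TGF-beta signalling that KLF10 is known to repress, had signals of 384 with vehicle and 562 with GnRH (0.64 ± 0.20, 1.56-fold). Thbd, the thrombomodulin gene and a target of KLF2 in endothelium, was at 0.25 ± 0.21. Nos3, another such target, was at 0.17 ± 0.20 on its brightest probe and at 0.22 on its other probe. Cdkn1a, the p21 gene and a target of KLF4 and KLF6, was at 0.17 ± 0.06 on its brightest probe, which was printed several times, and at 0.26 and 0.01 on its other probes. Of 8 TGF-beta signalling genes tied to KLF10 and KLF11, 7 were measured, with 2 above 0, 5 below 0, a median of -0.06 and 0 at 1.5-fold. Skil, an early TGF-beta target that encodes a SMAD corepressor, was at 0.35 ± 0.07 on its brightest probe and at 0.26 ± 0.21 on its other probe. The first error is about as small as that of the repeatedly printed Cdkn1a probe. Such errors cannot be set beside those of single spots as a sign of better measurement. The paralogue of Skil, Ski, was at -0.37 ± 0.32. Smad2 was at 0.10.

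**Figure D4:**
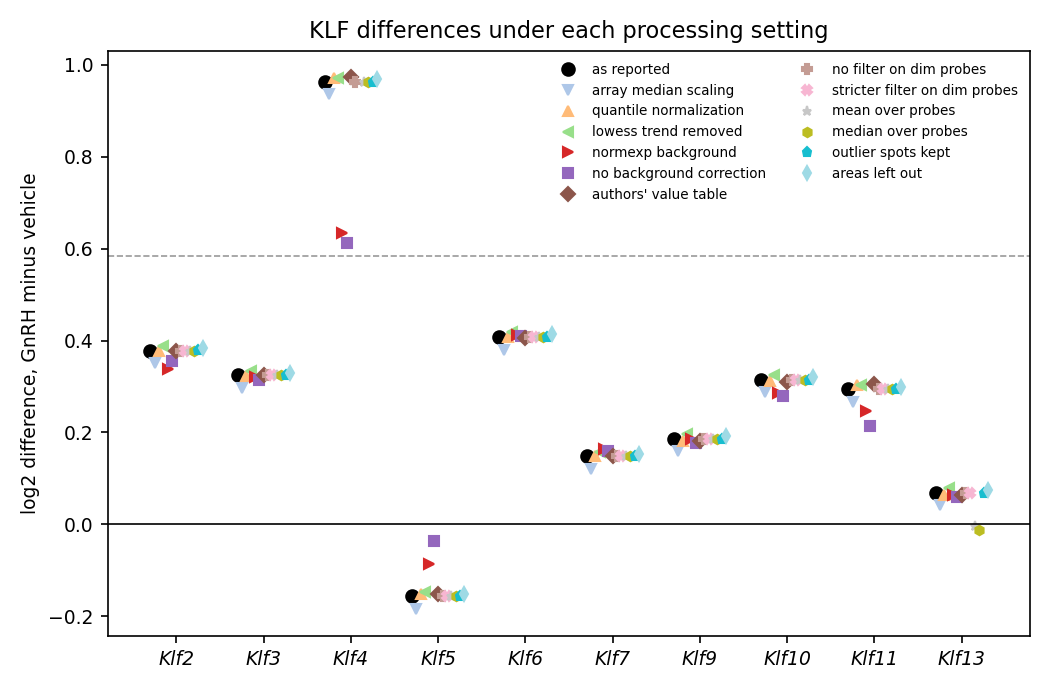
Log2 difference (GnRH minus vehicle) of each KLF gene as reported (black circles) and under 12 other processing settings (other symbols, named in the legend); the dashed line marks 1.5-fold. Klf4 drops to 0.63 with normexp and 0.61 with no background correction and has no value under the stricter filter on dim probes, while Klf13 crosses 0 when its probes are averaged.

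The order of the members was Klf4, Klf6, Klf2, Klf3, Klf10, Klf11, Klf9, Klf7, Klf13 and Klf5 from highest to lowest. The gap from Klf4 to Klf6 (0.96 and 0.41) was larger than the scanner errors of both genes added together. That held with the software's own background correction. The gap was smaller than that sum with normexp (0.63 and 0.41) and with no background correction (0.61 and 0.41). Klf13 and Klf5 (0.07 and -0.16) lay apart by slightly more than 1 scanner error and by less than their sum. All other neighbours lay closer than 1 scanner error, so neighbouring places from Klf6 to Klf5 are not told apart. Members farther apart in the order can differ by more, as Klf6 (0.41 ± 0.20) and Klf5 (-0.16 ± 0.22) did, beyond the sum of their errors.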

How the data were processed

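Total RNA of 2 GT1-7 samples was labelled with Cy3 and hybridised to single-colour Agilent mouse arrays with probes of 60 bases, per the file headers and the labels' protocols. The deposited scanner files hold a linear intensity per spot. Per the file headers, background subtraction and detrending were done with Feature Extraction 10.7.1.1, while version 9.5.1.1 stands in the submitters' processing notes. The authors also deposited a table of linear intensity, with column medians of 28.43 and 28.44. Over 29665 probes its differences had r = 0.998 against the scanner values, and its normalization is not given in the sources used here.

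Of 62976 spots, controls (leaving 59305) and outlier spots (121 on the vehicle array, 94 on the GnRH array) were left out, log2 processed signals were averaged per probe, and each array's 75th percentile (578 and 541 before the log) was subtracted. A probe counted as well above background with that mark on at least 50% of its spots (55.2% and 56.9% of spots did), and a gene took its brightest probe among those marked on both arrays. No test was made, as each group has 1 array, and folds of 1.5 and 2 were counted. Scanner errors of both arrays were combined. The named genes are the 10 members, every measured gene of the other KLF and SP lists, and up to 3 genes of each other list with the largest differences; further genes, and the comparisons with scanner errors and within signal groups, were chosen after their values were seen. Members and lists were chosen with earlier results of these data known. Gene names came from a RefSeq table (GRCm38.p6) for 27235 probes and from the files otherwise; promoter windows came from RefSeq of that build, which differs from the files' mm9, so the probes' exons are not given. Areas of the arrays were found where the median difference of spots within 2 rows and columns was at least 0.3 in size over at least 4 connected spots, widened by 2 spots (611 non-control spots). Gene values and fold counts were tested on simulated data, made from the vehicle array on both sides with repeated-spot noise and known folds. No overall intensity difference between the arrays was planted, so the simulation could not test the scaling. Python 3.11.15 and limma 3.58.1 were used. Alternatives changed the scaling, the probe rule, the background correction (normexp at offset 50, or left off), the filter on dim probes, scanner against authors' values, outlier spots, the areas and the fold. Some genes of the lists are not reported here by name.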

Additional observations from a re-analysis of the deposited data

How the results depend on the processing

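The median of the KLF members, 0.30 as reported, ran from 0.25 with no background correction to 0.31 with the lowess trend removed. The counts at least 2-fold higher and lower were 0 under all 12 alternatives, and the count at least 1.5-fold lower was 0 as well. With 0 members at 2-fold, the counts at a limit of 3-fold had to be 0 and are no further check. The count at least 1.5-fold higher was 1 under each alternative that kept Klf4 and 0 with the stricter filter on dim probes, which left out Klf4. The share of all genes at least 1.5-fold higher was not constant. It ran from 0.405% with normexp to 7.56% with no filter on dim probes. With no filter, Klf4 took place 1363 among 35017 genes. Of 119 values of single members under 12 alternatives, 117 moved by less than the scanner error and 0 called values changed sign. The 2 that moved by more were both of Klf4, to 0.63 with normexp and 0.61 with no background correction. Many of the 117 had little or no room to move. The filters left the values of kept members untouched, 9 members have 1 probe, and 0 member spots were outliers or in the areas. For those alternatives the count is no measure of robustness. Klf13 turned from 0.07 to -0.00 and -0.01 as the mean and median over its probes, which left 8 of the 10 members above 0. The median of all genes moved by under 0.1 between settings, from -0.03 to 0.01. Signal over background limits Klf4, Klf5 and Klf11, whose spot readings with vehicle, 161, 184 and 179, stood over local backgrounds of 70, 63 and 71. No paired analysis was possible because each group has 1 array.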

Other observations

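All 8 KLF promoter windows had a GC content above the median of all windows, a trait that the choice of genes did not use. Their GC content ran from 58.3% (Klf7) to 77.7% (Klf11), with a median of 70.7% over 8 windows, beside a median of 52.7% over 32817 windows of the same length. The upper quartile of all windows was 61.7%, above Klf7. Such a composition is common, as 10425 of the 32817 windows lie in the same range. Their ratio of observed to expected CpG ran from 0.659 (Klf3) to 0.974 (Klf4), beside a median of 0.383. GC boxes (GGGCGG), which SP and KLF proteins bind, were found in 7 of the 8 windows, all but that of Klf9, in 35.6% of all windows and in 75.9% of windows in the GC range of the KLF genes. CACCC boxes (CACCC) were found in Klf2, Klf3, Klf7, Klf9 and Klf13, in 57.5% of all windows and in 70.6% of those in that range.

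Letters of elements known from early response genes gave a mixed picture. The half-site of the cAMP response element (TGACG) was found in 5 of 8 windows (Klf2, Klf3, Klf4, Klf9 and Klf13), in 20.8% of all windows and in 31.7% of those in the GC range of the KLF genes, and the full element (TGACGTCA), which contains it, in 0 of 8, in 1.79% of all and in 3.24% of those in that range. The CArG box, which SRF binds, was found in 0 of 8 windows, in 1.63% of all and in 1.16% of those in that GC range. The AP-1 site (TGANTCA) was found in Klf9 alone, in 7.81% of all and in 3.66% of those in that range. CCAAT boxes (CCAAT) were found in Klf6, Klf9, Klf11 and Klf13, in 37.4% of all windows and in 33.6% of those in that range, and the TATA letters (TATAAA) in 0 of 8, in 13.6% of all and in 3.66% of those in that range. Each motif was searched on both strands. Elements farther from the start were not searched, and a missing match says only that these letters are not in this window.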
